A study of Mus musculus with 26 samples.

Results

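The chaperonin CCT, also called TRiC, is the ring-shaped folding machine of the cytosol, and the 8 genes of its subunits, Tcp1, Cct2, Cct3, Cct4, Cct5, Cct6a, Cct7 and Cct8, were followed here by their symbols among the 55416 genes listed for mouse choroid plexus (ChP). All 8 were found under 1 identifier each, and all 8 were among the 13697 genes that passed the minimum for testing, a mean of at least 1 CPM (counts scaled to the size of the library) in each group. The data are RNA-seq libraries of 4th ventricle ChP from adult male mice. In the Ctrl group, 12 C57Bl6J mice had sham surgery, and in the SCNx group, 12 C57Bl6J mice had an electrolytic lesion of the suprachiasmatic nucleus (SCN), the master clock. The mice spent a week in a light-dark cycle and then stayed in darkness, in which each 4 h step from circadian time (CT) 0 to CT44 took 1 mouse of each group, so that each time of day was sampled in 2 mice a group on consecutive days. The KO group held 2 mice of genotype FoxJ1-ERT2-Cre+/-; Bmal1fl/fl that were fed tamoxifen and kept in a light-dark cycle, 1 killed at Zeitgeber time (ZT) 7, in the light, and 1 at ZT18, in the dark. Per the methods of the study, these KO mice were older than the Ctrl and SCNx mice, and no surgery is described for them. Their Cre is expressed in epithelial cells with motile cilia, so that Bmal1 is deleted in ChP epithelium and in other ciliated cells, recombination was tested in liver, and mice of this line without the deletion were not analysed here. The KO tissue was cut by laser from frozen brain and prepared with another library kit, hence KO levels were tested against no other group. The order of genes and the direction from day to night are set beside Ctrl and SCNx. Where KO levels of markers, Arntl or members are printed beside theirs, group, tissue handling and kit cannot be told apart.

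CCT takes up newly made proteins that cannot fold alone, encloses them in its chamber and releases them folded, at the cost of ATP. Actin and tubulin are its best known clients, and both are handed to it by the cochaperone prefoldin. The complex needs all of its subunits, which are related but bind different stretches of a client. ChP epithelium carries microvilli with actin cores and cilia built of tubulin.

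Epithelial markers of ChP were abundant in all libraries. The 10 epithelial markers, led by Ttr, summed to between 143070 and 166480 CPM in Ctrl between 106250 and 167230 CPM in SCNx, and to 86432 and 82210 CPM in KO, below each Ctrl and SCNx library. The Ctrl and SCNx libraries held between 38751201 and 49527655 counts and those of KO 17425207 and 18059227. A few libraries stood apart. The 8 hepatocyte markers reached 2108 CPM in Ctrl CT16 and 11148 CPM in SCNx CT0, against medians of 1.76 and 3.102 CPM. The 7 neuron markers reached 241 CPM in Ctrl CT4 and 306 CPM in SCNx CT32, against medians of 14.9 and 14.4 CPM, and the 5 astrocyte markers reached 732 and 825 CPM in the same libraries. The KO libraries held 188 and 285 CPM of the neuron markers and 743 and 866 CPM of the astrocyte markers. In bulk tissue, fewer cells of a type and less RNA per cell cannot be told apart. Of the gene targeted in KO, Arntl (Bmal1), 11.1 CPM was counted at ZT7 and 8.997 CPM at ZT18, while Ctrl libraries spanned 2.01 CPM at CT36 to 39.4 CPM at CT0. The deletion removes only part of the gene, so that the count of the whole gene does not measure it.

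The subunit genes were abundant in ChP, and their Ctrl means lay between 48.4 and 65.1 CPM per kilobase of the principal transcript. Each gene ranked between 871 and 1753 of the 13697 genes by mean CPM in Ctrl, and a value in Ctrl or SCNx rested on 3808 to 8433 counts, which leaves a counting error of 1.09 to 1.62%. In KO it rested on 837 to 3671 counts, with an error of 1.65 to 3.46%. Levels between genes were compared per kilobase of the principal transcript. Per kilobase, Ctrl libraries held 65.1 ± 5.32 CPM of Cct7, 64.8 ± 2.36 of Tcp1, 63.7 ± 2.50 of Cct2 and 61.1 ± 3.18 of Cct5 (mean ± SD, n = 12 mice). The lower members per kilobase were Cct4 with 53.6 ± 3.02 CPM, Cct6a with 51.4 ± 1.57, Cct3 with 49.7 ± 2.70 and Cct8 with 48.4 ± 2.63. Between neighbours in this order the ranges over the 12 mice overlapped in each case. Cct5 was above Cct4 in 12 of 12 Ctrl libraries, whereas Cct7 was above Tcp1 in only 6.

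The same upper and lower members were found in SCNx, where the order began with Tcp1 at 67.0 ± 3.74 CPM per kilobase and Cct2 at 64.04 ± 2.99 and ended with Cct3 at 48.6 ± 2.76 (mean ± SD, n = 12 mice). In the KO libraries, which were made with another kit, Tcp1 was highest with 90.2 and 65.2 CPM per kilobase at ZT7 and ZT18, and Cct3 was lowest with 25.5 and 22.5. The order and the spread between genes depend on the length that is used. With the summed length of all annotated exons of a gene, Cct2 was first with 48.8 CPM per kilobase in Ctrl and Cct3 last with 15.4, and Cct7 moved to place 7 with 23.4.

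**Figure D1:**
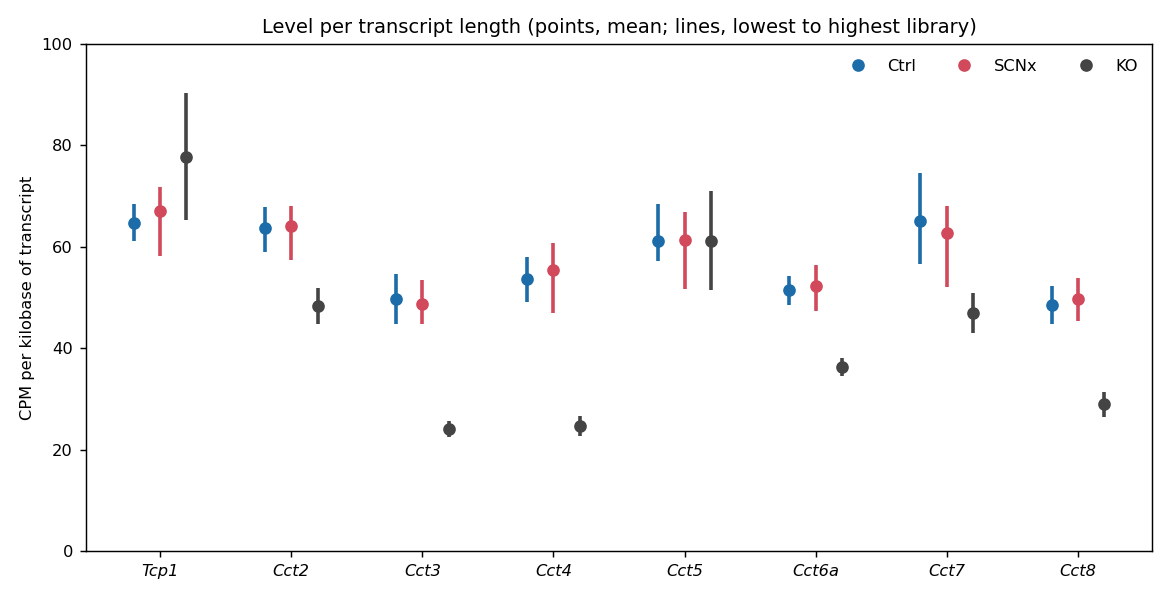
Level of each CCT subunit gene in CPM per kilobase of its principal transcript in Ctrl (blue), SCNx (red) and KO (grey). Points are means over 12, 12 and 2 libraries and lines run from the lowest to the highest library. The Ctrl means lie between 48.4 and 65.1, and those of KO spread from 24.0 for Cct3 to 77.7 for Tcp1.

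In the GENCODE annotation of build GRCm38 the members lie on 8 chromosomes. Tcp1, the alpha subunit (ENSMUSG00000068039), is at chr17:12915701-12925067, Cct2, the beta subunit (ENSMUSG00000034024), at chr10:117051001-117063814, and Cct3, the gamma subunit (ENSMUSG00000001416), at chr3:88297116-88321767. Cct4, the delta subunit (ENSMUSG00000007739), is at chr11:22990519-23003780 and Cct5, the epsilon subunit (ENSMUSG00000022234), at chr15:31590800-31601804. Cct6a, the zeta subunit (ENSMUSG00000029447), is at chr5:129786998-129846371, Cct7, the eta subunit (ENSMUSG00000030007), at chr6:85451514-85468475 and Cct8, the theta subunit (ENSMUSG00000025613), at chr16:87483326-87495873. In each of Tcp1, Cct6a, Cct7 and Cct8, an exon meets a gene of the opposite strand, namely Acat3, Psph, Pradc1 and Usp16, with mean counts of 87.7, 249.9, 263 and 1946. The strand setting of the counting is not given in the sources used here, so that some reads of these overlaps could be assigned to either gene. The related gene Cct6b reached at most 27 counts in a Ctrl or SCNx library and Cct8l1 at most 5, so that few reads were assigned to these copies. How many reads match both a member and a copy was not determined.

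The bases before the start sites are shown for 4 members, because the 8 genes sit on different chromosomes and yet varied together from mouse to mouse, as described below. RefSeq (GRCm38.p6) gave 9 start sites for 7 members (all but Cct4). The 250 bases before each of these and before each of all 32851 start sites of the table were searched on both strands. The heat shock element, which heat shock factors bind, was searched as GAANNTTC or TTCNNGAA, and is marked in capitals in the first pair of sequences. SP1 boxes (GGGCGG or CCGCCC) are in capitals in the sequences of Cct7, Cct8 and the upstream start site of Cct2, and the ETS motif (CCGGAAGT or ACTTCCGG) in that of Cct8, where it follows the SP1 box.
Cct5, chr15:31601865-31601888, minus strand: gcggccgaTTCCAGAAgctactct
Cct2, downstream start site, chr10:117063376-117063435, minus strand: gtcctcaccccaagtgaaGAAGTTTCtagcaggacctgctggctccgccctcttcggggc
Cct2, upstream start site, chr10:117063853-117063972, minus strand: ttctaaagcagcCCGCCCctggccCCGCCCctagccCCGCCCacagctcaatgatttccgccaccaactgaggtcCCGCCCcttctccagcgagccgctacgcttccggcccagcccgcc
Cct7, chr6:85451385-85451504, plus strand: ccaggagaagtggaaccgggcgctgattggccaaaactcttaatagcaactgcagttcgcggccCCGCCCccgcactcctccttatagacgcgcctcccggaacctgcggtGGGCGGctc
Cct8, chr16:87495874-87495993, minus strand: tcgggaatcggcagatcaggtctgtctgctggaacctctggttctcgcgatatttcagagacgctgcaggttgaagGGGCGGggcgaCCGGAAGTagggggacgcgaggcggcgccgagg

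The stretch of Cct5 is kept short because it also falls in an exon of Fam173b, a gene of the other strand, while the others met no annotated exon. An SP1 box was present before 8 of the 9 start sites of members, against 32.7% of all start sites. Heat shock elements were present before 2 of the 9, at bases -34 of Cct5 and -42 of the downstream start site of Cct2, against 12.8% of all. The E-box CACGTG, which the clock factors CLOCK and BMAL1 bind, was present before 0 of the 9, against 6.02% of all. The same count of 0 was found for the D-box (TTATGTAA or TTACATAA, 0.819% of all), the full CRE (TGACGTCA, 1.55%) and the NRF1 motif (0.782%). The core of the CRE (TGACG or CGTCA, both held by the full CRE) was present only before Cct6a, 3 times, against 17.8% of all start sites. The ETS motif was present only before Cct8, against 2.88%. A match is a run of letters and not a measured binding site.

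To see whether the subunit genes followed a daily rhythm in ChP with an intact SCN, a 24 h cosine curve was fitted to the 12 Ctrl mice. The amplitude is the log2 distance from the mean to the peak. The curves were shallow, and 1 of the 8 members was called rhythmic (quasi-likelihood F test of edgeR, p adjusted after Benjamini and Hochberg over the 13697 genes, threshold 0.05). The background was 10.7% of all tested genes called, so that 1 of 8 is near it. At an unadjusted p under 0.05 there were 4 of 8 members, Cct3, Cct4, Cct7 and Cct8, against 24.8% of all genes. The median amplitude of the members was 0.071, below the 0.11 of all tested genes.

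Cct4 was the member called. CCT4 protein is, with CCT5, one of the subunits known to form rings of its own in a test tube. Its lowest Ctrl library held 122 CPM (CT4), its median was 132 CPM and its highest library held 144 CPM (CT20). Both nights were alike, with 144 CPM at CT20 and 144 CPM at CT44, and both middays were low, with 125 CPM at CT8 and 127 CPM at CT32. The fitted amplitude was 0.098 ± 0.017 (SE, log2), which is 1.15-fold from trough to peak, and the peak was at 19.8 h, in the second part of the subjective night (adjusted p = 0.0244, edgeR). The call was lost without the library Ctrl CT8 (adjusted p = 0.0620, edgeR) or Ctrl CT44 (0.0808), with time of day as a factor in place of the cosine (0.287), and without a minimum on expression (0.442). Among the 35 fits made in all, it was held in 31.

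Cct7 varied most. From 138 CPM at CT8, the lowest Ctrl library, it ranged over a median of 159 CPM to 182 CPM at CT20. The CT44 library was the next highest with 176 CPM, and the 4 libraries of CT4, CT8, CT28 and CT32 spanned 138 to 158 CPM. Its amplitude was 0.13 ± 0.032 (SE, log2), or 1.19-fold from trough to peak, with the peak at 19.0 h and an adjusted p of 0.0506 (edgeR), just over the threshold. It was called in 18 of the 35 fits. Cct8 behaved likewise at a smaller range, from 107 CPM at CT8 over a median of 117 to 125 CPM at CT40, with an amplitude of 0.086 ± 0.021 (SE, log2), a peak at 19.1 h and an adjusted p of 0.0860 (edgeR).

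The other members did not pass the test in any of the 35 fits. Cct3 spanned 88.6 to 108 CPM (median 97.2), Cct5 106 to 127 CPM (median 113) and Cct6a 119 to 133 CPM (median 127) in Ctrl. Their highest library was CT44 in each case, and their lowest was CT8 for Cct3 and Cct6a and CT12 for Cct5. Fitted peaks were at 19.0, 19.1 and 19.6 h and adjusted p values were 0.170, 0.350 and 0.432 (edgeR). Tcp1 and Cct2 had the flattest curves for their level. Tcp1 spanned 149.5 to 167 CPM (median 159.8) with an amplitude of 0.045 ± 0.018 (SE, log2), and Cct2 spanned 116 to 133 CPM (median 124) with an amplitude of 0.014 ± 0.025. Their fitted peaks were both at 14.5 h, with adjusted p of 0.486 and 0.927 (edgeR).

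By time of day, the mean of the 2 mice was highest at CT20 for 6 of 8 members in Ctrl and lowest at CT8 for 6 of 8. Between those extremes lay a factor of 1.21 for Cct7, 1.15 for Cct4 and 1.04 for Cct2. The times of the extremes were not counted over all genes. The Ctrl mice of day 2 were mostly above those of day 1 at the same time of day, at 6 of 6 times for Tcp1, Cct2, Cct3, Cct5 and Cct8 and at 5 of 6 for Cct4, Cct6a and Cct7. The sum of the members was higher on day 2 at 6 of 6 times in Ctrl and at 3 of 6 in SCNx. The median shift in Ctrl was 0.088 (log2) for Cct2, 0.076 for Cct7 and 0.047 for Cct4. With a linear trend in the fit, the adjusted p of Cct4 was 0.0380 (edgeR). Fitted peaks of 6 members fell between 18 and 21 h, a window set after these values had been seen, as did those of 16.0% of all tested genes and 21.5% of the genes called rhythmic. The sum of the 8 members ran from 958 CPM at CT8 to 1101 CPM at CT44. Ctrl CT4, the library high in neuron markers, was next to lowest with 961 CPM, and without it and SCNx CT32 the adjusted p of Cct4 was 0.0023 and that of Cct7 0.0144 (edgeR). The part of these markers in the result was not tested.

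**Figure D2:**
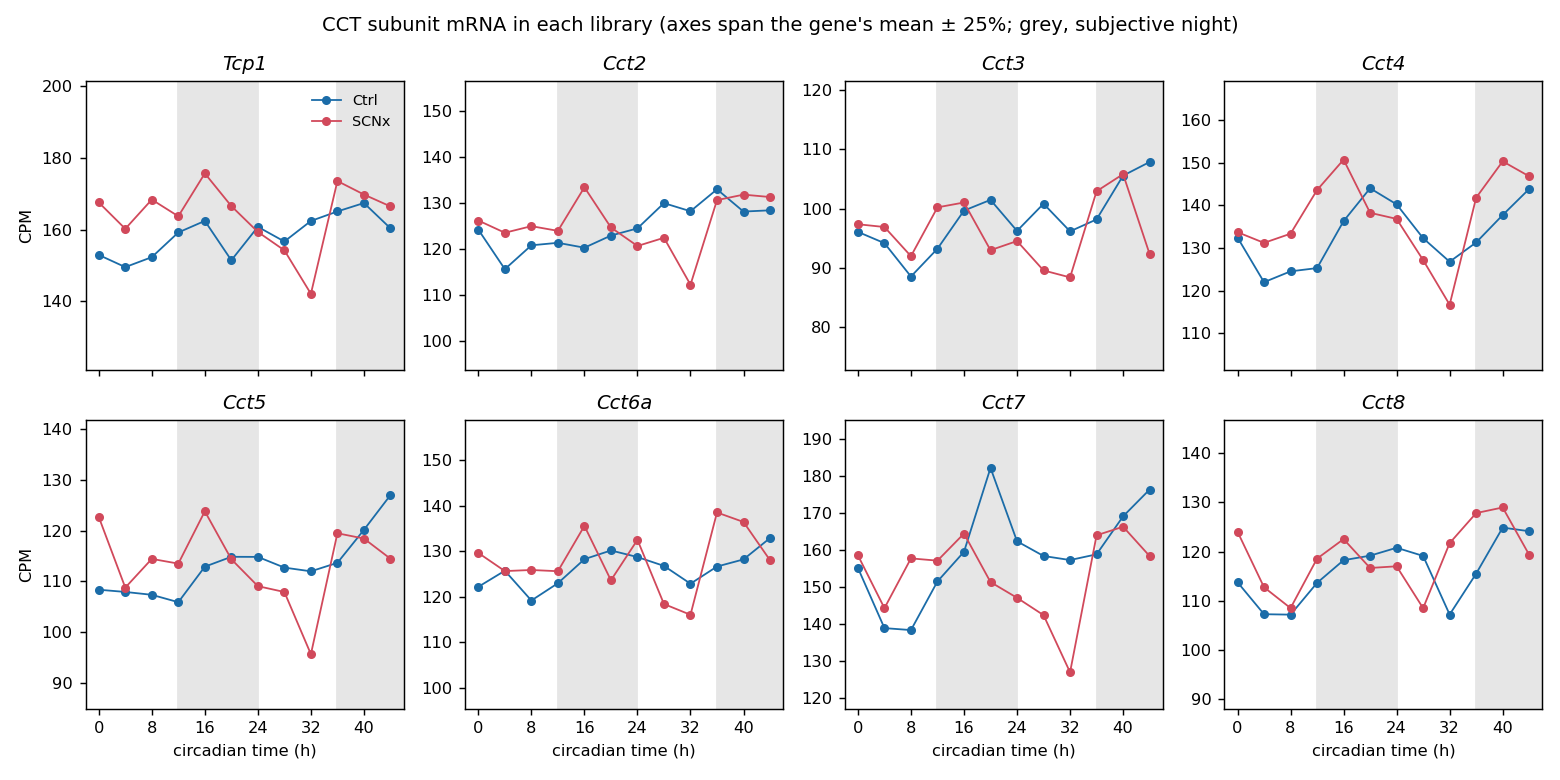
CPM of each CCT subunit gene (y axis, spanning 25% below to 25% above the gene's mean) against circadian time in hours (x axis), 1 mouse per point, in Ctrl (blue) and SCNx (red), with the subjective night in grey. Cct7 reaches 182 CPM in Ctrl CT20, and 7 of the 8 genes have their lowest SCNx value in CT32.

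In SCNx, the same fit called 0 of the 8 members, and 0.0% of all 13697 genes were called. DESeq2's likelihood ratio test called 1 member, Cct4 (adjusted p = 0.00478), and 432 of all 13697 genes. With limma-trend 0 members and 0 of all genes were called. At an unadjusted p under 0.05 by edgeR there were 5 of 8 members, Tcp1, Cct4, Cct6a, Cct7 and Cct8, against 14.8% of all genes. With an unadjusted p of 0.000180 Cct4 ranked 9 among the 13697 genes, and its adjusted p of 0.137 was shared by 70 genes at the lowest value reached (edgeR).

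The fitted curves of the members in SCNx were about as deep as in Ctrl. Amplitudes ranged from 0.064 for Cct2 to 0.12 for Cct4, with a median of 0.072 (log2) beside the 0.071 of Ctrl, while the median over all genes was 0.091 beside 0.11. All 8 fitted peaks fell between 15.3 h (Cct3) and 17.6 h (Cct5) in a group where edgeR called none of these curves. A window of 15 to 18 h, set after these values had been seen, held 14.3% of all tested genes. The members varied together from mouse to mouse, as described below, so that they are not 8 separate observations. For 8 of 8 members the mean of the 2 mice was highest at CT16, and for 7 of 8 it was lowest at CT8. Over all genes these times were not counted. For those 7 members the lower of the 2 mice was that of CT32, the library high in neuron and astrocyte markers. At CT8 itself Tcp1 stood at 168 CPM and Cct7 at 158 CPM, near their medians, against 142 and 127 CPM at CT32. The part of these markers in the low values was not tested. Cct4 spanned 117 CPM (CT32) over a median of 138 CPM to 151 CPM (CT16), with 150.3 CPM at CT40. Cct7 spanned 127 CPM (CT32) over a median of 157 CPM to 166 CPM (CT40), with 164 CPM at CT16. Both were thus highest in the CT16 and CT40 libraries, where the sum of the 8 members was 1107 and 1108 CPM. The other members spanned 142 to 176 CPM for Tcp1, 112 to 133 for Cct2, 88.4 to 106 for Cct3, 95.7 to 124 for Cct5, 116 to 139 for Cct6a and 109 to 129 for Cct8. The lowest sum, 919.9 CPM, was that of SCNx CT32. Without SCNx CT32 and Ctrl CT4, adjusted p for the SCNx rhythm was 0.101 for Cct4 and 0.244 for Cct7 (edgeR), and 0 members were called.

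The test of the difference itself called 0 of the 8 members, against 2.12% of all genes. There were also 0 members at an unadjusted p under 0.05, against 15.1% of all genes, and 0 were called by DESeq2 and by limma-trend. Adjusted p ranged from 0.376 for Cct4 to 0.885 for Cct5 (edgeR). The amplitude in SCNx minus that in Ctrl was 0.024 ± 0.030 for Cct4, -0.025 ± 0.049 for Cct7 and 0.050 ± 0.033 for Cct2 (SE, log2), and it was below 0 for 3 of the 8 members. Fitted peaks of Cct4 were at 19.8 h in Ctrl and 17.02 h in SCNx, and those of Cct7 at 19.0 h and 16.5 h. These shifts are part of the test that called none. Without Ctrl CT4 and SCNx CT32, adjusted p of the difference was 0.0524 for Cct4 (edgeR).

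**Figure D3:**
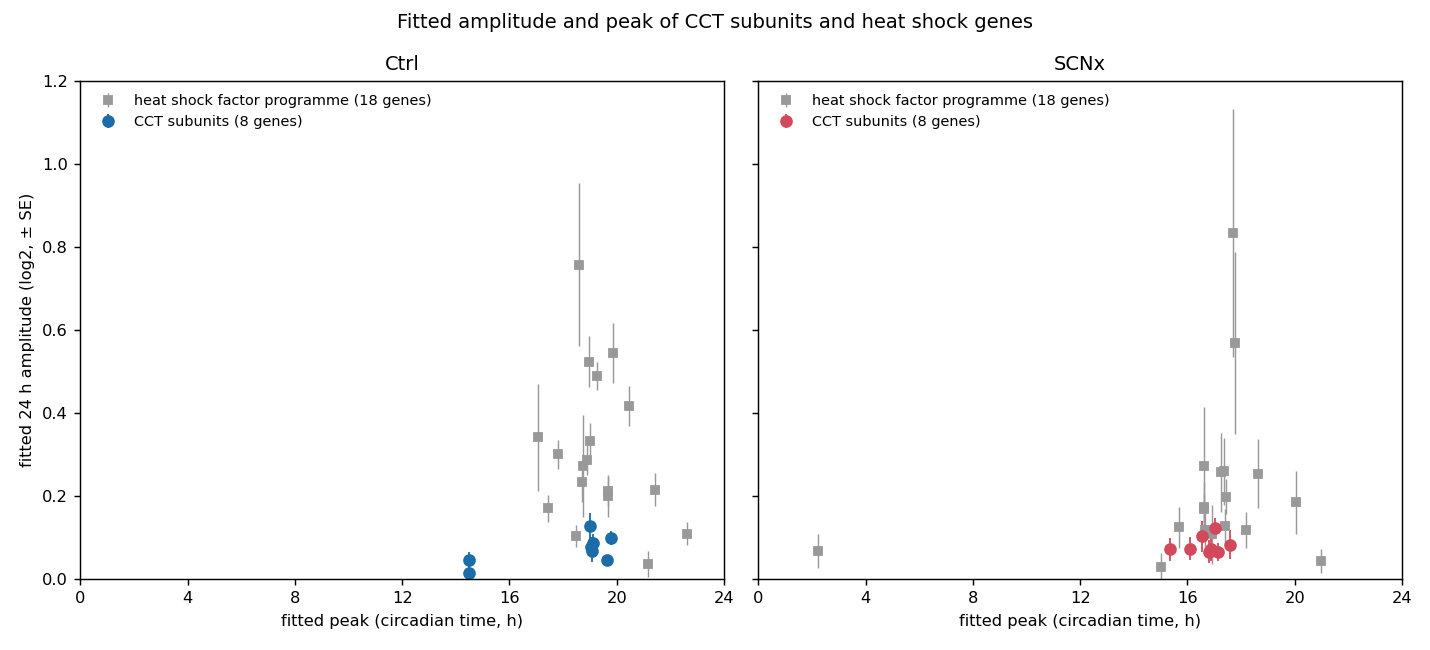
Fitted 24 h amplitude (log2, bars are SE) against fitted peak in hours of circadian time in Ctrl and SCNx, for the 8 CCT subunit genes (coloured circles) and the 18 genes of the heat shock factor programme (grey squares). The CCT genes have amplitudes of at most 0.13 in Ctrl and 0.12 in SCNx, and 6 of them lie near 19 h in Ctrl.

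Averaged over all times, differences in level between SCNx and Ctrl were within the spread between mice. With Ctrl first and SCNx after it, Tcp1 averaged 158 ± 5.76 and 164 ± 9.14 CPM, Cct4 133 ± 7.50 and 138 ± 9.96 CPM, and Cct7 159 ± 12.99 and 153 ± 11.4 CPM (mean ± SD, n = 12 mice each). The ranges of the groups overlapped for each of the 8 genes. The log2 fold change, SCNx minus Ctrl, ran from -0.053 ± 0.046 for Cct7 to 0.050 ± 0.029 for Tcp1 (SE), with 6 members above 0 and a median of 0.014, against 0.011 over all genes. Of the 8 members 0 were called, of all genes 0.0% (edgeR). There were 0 members at an unadjusted p under 0.05, against 9.37% of all genes, and 0 called by DESeq2 or limma-trend, and adjusted p ranged from 0.613 to 0.981 (edgeR).

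Some of the subunit genes were among the steadiest tested. The coefficient of variation over the 12 Ctrl mice was 3.06% for Cct6a, 3.64% for Tcp1 and 3.93% for Cct2, against a median of 9.86% over all tested genes. Only 0.496% of the genes were steadier than Cct6a. Cct7 had the largest coefficient, 8.17%. In SCNx the coefficients ran from 4.66% for Cct2 to 7.45% for Cct7, against a median of 11.1% over all genes. Most tested genes had lower levels than the members, and lower counts carry a larger counting error. A comparison with genes of like level was not made.

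The members varied together from mouse to mouse. Over the 12 Ctrl mice, the 28 pairs of members had a median Pearson r of log2 CPM of 0.78, from 0.26 for Cct2 with Cct6a to 0.92. Over the 12 SCNx mice the median was 0.79, from 0.31 for Tcp1 with Cct8 to 0.96 for Tcp1 with Cct7. The points share their libraries and scaling. Without Ctrl CT4 the median was 0.76, and without SCNx CT32, where 7 members were lowest, it was 0.73. The lowest pair then had an r of 0.067 in Ctrl and of 0.57 in SCNx. Tcp1 and Cct2 stood apart in Ctrl, with r of 0.50 and 0.54 to the mean of the others, and 0.37 and 0.40 without Ctrl CT4. Cct8 had an r of 0.48 in SCNx, which rested on CT32, where it was not low (122 CPM), and without that library it was 0.85. The other members had r of 0.80 to 0.94 to the mean of the rest in each group of 12.

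Of the 13689 tested genes that code for no CCT subunit, those most like the mean of the 8 members over the 24 libraries were Rab1a, a GTPase of transport from the endoplasmic reticulum to the Golgi (r = 0.87), Pcbp1, an RNA-binding protein (0.86), Abracl (0.83), Mdh1, cytosolic malate dehydrogenase (0.83), and Pgk1, a glycolytic enzyme (0.83). Over the 12 Ctrl libraries they were Natd1 (0.94), Cnn3, an actin-binding calponin (0.93), Hibadh (0.92), Got1 (0.91) and Rab1a (0.91). The median r of non-members was -0.021 over the 24 libraries and 13 of them exceeded 0.8. Over the 12 Ctrl libraries it was -0.029 and 130 exceeded 0.8.

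Around CCT, 4 of the 32 tested genes that feed it, regulate it, depend on it or resemble it were called rhythmic in Ctrl, or 12.5%, near the 10.7% of all genes. Prefoldin had 0 of 6 genes called, with 1 at an unadjusted p under 0.05 (edgeR). The phosducin-like cofactors of CCT had 0 of 3 tested genes called and also 1 at an unadjusted p under 0.05 (edgeR). Their most abundant genes were Pfdn5 with 77.3 ± 6.72 CPM and Txndc9 with 40.5 ± 1.83 CPM in Ctrl (SD, n = 12). Pdcl2 had no count and was not tested. DESeq2 and limma-trend also called 0 genes of either list. In SCNx, edgeR called 0 genes of prefoldin, cofactors, clients, tubulin cofactors and chaperonin-like genes. DESeq2 called 3 genes there, all among the clients, and 432 of all 13697 genes. At an unadjusted p under 0.05 these lists had in turn 0, 0, 5, 1 and 1 genes, against 14.8% of all genes (edgeR). The 5 clients were Tuba1a, Tubb2a, Tubb2b, Tubb3 and Tubb4a, each highest in SCNx CT32, the library with 306 CPM of neuron markers. Tubb3, the tubulin of neurons, had 57.9 CPM there and at most 1.435 CPM in the other 11 SCNx libraries. Without Ctrl CT4 and SCNx CT32, Tuba1a and Tubb4a stayed at an unadjusted p under 0.05 in SCNx (0.0424 and 0.00424, edgeR). Tuba1b and Tubb4b joined them (0.0238 and 0.0490), Tubb2a had 0.455, and Tubb2b and Tubb3 were no longer tested (edgeR). The part of the neuron markers in the values of the clients was not tested.

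Of the actin and tubulin genes, 1 of 14 tested was called in Ctrl, Tuba4a, with a peak at 0.30 h and an amplitude of 0.16 (adjusted p = 0.0450, edgeR), against 10.7% of all genes. DESeq2 and limma-trend each called 2 of 14. The most abundant clients, Tubb4b with 710.3 ± 64.1 CPM, Tuba1b with 694 ± 47.9 and Actb with 633 ± 45.4 (SD, n = 12), had adjusted p of 0.262, 0.352 and 0.332 (edgeR). Of the 6 tubulin folding cofactors, which take tubulin from CCT and join its subunits, 2 were called by each of the 3 tools. Of all 13697 genes, edgeR called 1459, DESeq2 2053 and limma-trend 1375. Tbcd had an amplitude of 0.32 with a peak at 8.5 h (adjusted p = 0.000210, edgeR), in the subjective day, and Tbcb one of 0.22 with a peak at 20.5 h (0.0367). The rhythm of Tbcd differed between the groups (adjusted p = 0.0142, edgeR), with an amplitude of 0.023 in SCNx.

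Of the chaperonin-like genes, 3 were tested and 1 was called, against 10.7% of all genes. This was Mkks, which builds the BBSome of cilia together with Bbs10, Bbs12 and CCT. It had an amplitude of 0.31 and a peak at 19.8 h in Ctrl (adjusted p = 0.00741, edgeR). The peak lay at the time at which that of Cct4 was fitted.

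The heat shock factor programme contrasted with CCT in depth. Heat shock factor 1 is known to drive many chaperone genes, and 12 of these 18 genes were called in Ctrl, against 10.7% of all genes, with peaks from 17.4 to 21.4 h. Amplitudes of these 12 ran from 0.17 for Dnaja1 to 0.54 for Hsph1, all above that of Cct7, but the call itself favours large amplitudes. Of the genes not called, Hsf2 (0.036), Hspd1 (0.10) and Hspa4 (0.11) were below Cct7. Dnajb1 (0.27), Hspa1a (0.34) and Hspa1b (0.76) were above it. Hsp90aa1, the inducible HSP90, had an amplitude of 0.42 (adjusted p = 0.000123, edgeR), and Hspa8, the constitutive HSC70, one of 0.30 (0.000656). Of the chaperonin of mitochondria, Hspe1 was called (0.23, adjusted p = 0.0373) and Hspd1 was not (0.10, adjusted p = 0.156, edgeR). Their fitted peaks were at 18.7 and 18.5 h, and these genes were not tested against each other. Over the 18 genes the median amplitude was 0.28 in Ctrl and 0.17 in SCNx, and it was lower in SCNx for 14 of 18. The difference of the rhythm was called for 1 of 18, Hsp90aa1 (adjusted p = 0.0404, edgeR), against 2.12% of all genes. At an unadjusted p under 0.05 for the difference there were 10 of 18, against 15.1% of all genes (edgeR). In SCNx edgeR called 0 of 18 and 0.0% of all genes. There, 12 of 18 were at an unadjusted p under 0.05, against 14.8% of all genes (edgeR). DESeq2 called 4 of 18 in SCNx, and 432 of all 13697 genes. The clock itself served as a check of the fit. Arntl, Nr1d1, Dbp and Per2 were all called in Ctrl by edgeR and all 4 differed between the groups, with median amplitudes of 2.14 in Ctrl and 0.39 in SCNx.

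In the KO mice, the subunit genes were lower at night than by day, which is the other direction than in Ctrl and SCNx. From ZT7 to ZT18, Tcp1 went from 221 to 159.6 CPM, Cct5 from 131 to 95.2 CPM and Cct7 from 124 to 105 CPM. Cct2 went from 102 to 87.7 CPM, Cct8 from 75.3 to 63.5 CPM and Cct4 from 66.0 to 56.5 CPM. Cct6a and Cct3 differed least, from 93.4 to 84.9 CPM and from 50.5 to 44.6 CPM. With 1 mouse per time there is no replicate check, and intervals cover counting error only.

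The night minus day difference in KO was -0.47 for Tcp1 (95% counting interval -0.54 to -0.40, log2), -0.46 for Cct5 (-0.55 to -0.37) and -0.14 for Cct6a (-0.24 to -0.037). It was at or below -0.3 for 2 of the 8 members, against 18.6% of the 14383 genes with at least 1 CPM in both libraries, at or above 0.3 for 0 of 8, against 19.9%, and below 0 for 8 of 8, against 49.5% of the genes. All 8 values come from the same 2 libraries, so that they are not 8 separate observations. The median of the members was -0.23, and that of all genes 0.0033. Without the TMM factors, which moved all genes by 0.12, it was -0.11 against a median of 0.13 for all genes, and 8 of 8 members were still below 0.

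The same difference in Ctrl was taken from the 4 mice of CT16, CT20, CT40 and CT44 against the 4 of CT4, CT8, CT28 and CT32. It was above 0 for 8 of 8 members, with a median of 0.12 against -0.0077 over all genes. For Cct4 the day libraries spanned 122 to 132 CPM and the night libraries 136 to 144 CPM. Cct7 had 138 to 158 CPM by day and 159 to 182 CPM at night. Cct5 and Cct6a did not overlap either, so that 4 of 8 members had each night library above each day library, against 6.53% of all genes. In SCNx the difference was also above 0 for 8 of 8 members (median 0.12, all genes -0.0056), and Cct4 was the only member without overlap, with 117 to 133 CPM by day and 138 to 151 CPM at night, against 1.96% of all genes.

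**Figure D4:**
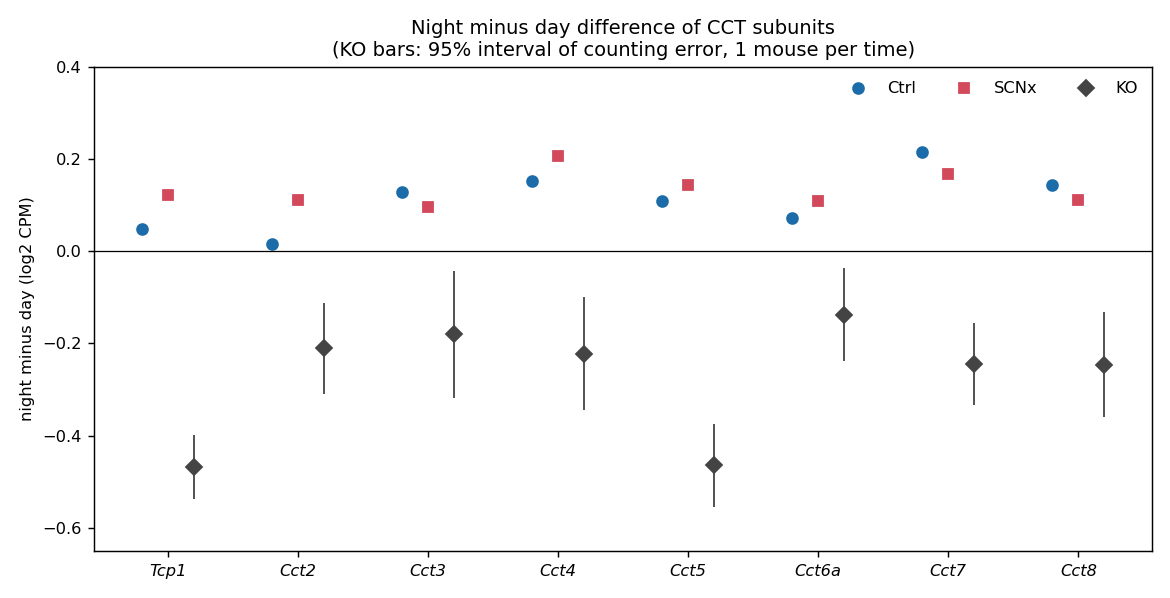
Night minus day difference (log2 CPM) of each CCT subunit gene in Ctrl and SCNx (4 against 4 mice each) and in KO (ZT18 against ZT7, 1 mouse each, bars are the 95% interval of counting error). Ctrl and SCNx values lie above 0 for 8 of 8 genes and KO values lie below 0 for 8 of 8.

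Most other listed chaperone genes were also lower in the KO mouse of ZT18. In the heat shock list 14 of 18 genes were below 0, against 49.5% of all genes, with a median of -0.22. Hsp90aa1 had 2059 CPM at ZT7 and 1342 at ZT18, and Hspe1 had 53.9 and 35.4 CPM. In the other direction, Hspa1b, Hspb1 and Bag3 were higher at ZT18 by 1.12, 0.66 and 0.37 (log2), Hspa1b at only 3.91 and 8.57 CPM. The 3 phosducin-like cofactors were below 0 as well, with a median of -0.44, and prefoldin had 4 of 6 below 0 with a median of -0.33. Markers of other cells differed between these libraries, at 743 and 866 CPM for astrocytes, 188 and 285 CPM for neurons, 307 and 446 CPM for oligodendrocytes and 255 and 413 CPM for fibroblasts at ZT7 and ZT18, while epithelial markers stood at 86432 and 82210 CPM. Their part in the difference was not tested. Per the methods of the study, the RNA of the KO samples was less intact on average than that of Ctrl and SCNx. Mouse, time, light-dark cycle, deletion, tamoxifen, age, surgery, tissue handling, RNA integrity and library kit cannot be told apart between KO and Ctrl.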

How the data were processed

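Per the labels and the methods of the study, polyadenylated RNA of Ctrl and SCNx (KAPA mRNA HyperPrep) and RNA of KO (Smarter Stranded totRNA-seq low input kit) were sequenced as single-end reads. Using nf-core/rnaseq and the GRCm39 build, the authors deposited the estimated counts per gene of Salmon (version 1.9.0 in the submitters' processing notes), not normalized. The estimated counts were rounded here, scaled with TMM factors (0.9545 to 1.082) and fitted with edgeR 4.0.16 under R 4.3.3, each group with its own mean and 24 h cosine and sine terms over 24 libraries, or as group means for the level. p-values were adjusted by the Benjamini-Hochberg method over 13697 genes. Log2 values used a prior count of 1. Libraries were joined to groups by their labels, and no separate batches are given. Each time of a group is 1 mouse.

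Alternatives were DESeq2 1.42.0, its size factors, limma-trend (limma 3.58.1), other minimum levels, time as a factor of 6 levels, a trend, each group alone, and fits without single or paired libraries. Errors of amplitudes are those of a least-squares curve through log2 CPM. Named genes are the 8 members, listed genes that were most abundant or past the threshold, and the 5 most alike genes over 24 and over 12 Ctrl libraries. The members, lists and libraries left out in pairs were chosen with earlier results of these data known. Transcript lengths and overlaps came from GENCODE M21 (GRCm38), whose build differs from that of the counts. For Cct6a no complete coding transcript was marked there, and its longest basic transcript was used. The rhythm tools of the study, eJTK, ARSER and BIO_CYCLE, were not run. The KO intervals cover counting error only, since each KO time is 1 mouse. The reads carry no molecular identifiers, so that copies of a molecule made in library preparation are counted as separate reads.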

Additional observations from a re-analysis of the deposited data

Results flagged for a closer look

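All 8 members were higher at night in Ctrl and lower at ZT18 in KO, and for 4 of them the Ctrl libraries of night and day did not overlap. Every Ctrl night library was above every day library for Cct4, Cct5, Cct6a and Cct7, whereas the KO mouse of ZT18 was below that of ZT7 by log2 differences of -0.22 for Cct4, -0.46 for Cct5, -0.14 for Cct6a and -0.24 for Cct7. The difference between the groups was not tested, with 1 KO mouse per time, and the members share these libraries.

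The difference between SCNx and Ctrl was tested with edgeR's quasi-likelihood F test, with p adjusted over all tested genes. It was called for 6 of the listed genes that are not members, against 2.12% of all tested genes. Hsp90aa1 (adjusted p = 0.0404) was 1 of 18 heat shock genes, and Tbcd (0.0142) 1 of 6 tubulin cofactors. The others were the 4 clock genes listed as a check, Nr1d1 with 0.000229, Per2 with 0.000285, Arntl with 0.000384 and Dbp with 0.000686. The fitted amplitude was lower in SCNx for each of these 6 genes.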

How the results depend on the processing

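The count of members called rhythmic in Ctrl moved with the setting. It was 3 with DESeq2 and with each group fitted alone, 2 with DESeq2 size factors, with a minimum of 5 CPM, without Ctrl CT16 and SCNx CT0 and without Ctrl CT4 and SCNx CT32, 1 with limma-trend and with a linear trend, and 0 without a filter and with time of day as a factor. With single libraries left out it ranged from 0 to 3. The count over all genes moved as well. Of 13697 genes it was 1459 in the main fit, 2053 with DESeq2 and 1997 with each group alone. DESeq2 size factors gave 1470, limma-trend 1375, a linear trend 1447 and time of day as a factor 583. It was 1444 of 10747 with a minimum of 5 CPM and 1116 of 40287 without a filter. Without Ctrl CT16 and SCNx CT0 it was 1669 of 13591, and without Ctrl CT4 and SCNx CT32 2223 of 13490. Cct4 was lost without Ctrl CT8 or CT44. Cct7 was called without Ctrl CT0, CT12, CT16, CT24, CT28, CT32, CT36 or CT40 or SCNx CT0, CT8, CT12 or CT32 (adjusted p = 0.00715 to 0.0465, edgeR), and Cct8 without Ctrl CT28 or SCNx CT8 or CT32 (0.0389 to 0.0475). In SCNx the count of members called was 1 with DESeq2 and 0 in the other fits. For the difference and the level it was 0 in each fit. The cause was not tested.

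The level of Cct2 turned from 0.0080 to -0.0033 without a filter, and that of Cct5 from 0.0052 to -0.0056 without a filter and to -0.0056 without Ctrl CT16 and SCNx CT0. With single libraries left out, Cct2 ranged from -0.0034 to 0.018 and Cct5 from -0.0066 to 0.022. With circadian time as a replicate block, 0 members were called for the level, as without it. Ctrl and SCNx mice of the same time share only that time, and their deviations correlated by -0.44 to 0.33, with 1 of 12 Ctrl libraries closest to the SCNx library of its own time. The KO median of -0.23 became -0.11 without TMM factors and -0.23 with a prior count of 5.

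Counts over all genes moved too. For the rhythm in Ctrl, 1459 genes became 583 with time as a factor and 2223 without Ctrl CT4 and SCNx CT32. For SCNx, 0 became 432 with DESeq2 and 1384 without a filter. For the difference, 291 became 589 with DESeq2, 654 without a filter, 78 with time as a factor and 504 without Ctrl CT4 and SCNx CT32, and for the level 0 became 14 with DESeq2. Each time point is 1 mouse. Counting error of a member was at most 1.62% in Ctrl and SCNx and 3.46% in KO.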
